A study of Eragrostis tef with 16 samples.

Results

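The response of tef shoots to low calcium was described from gene reads of 8 shoot libraries, 4 from plants grown with low calcium and 4 from plants grown with optimum calcium, out of the 16 libraries of the series. Tef (Eragrostis tef) is a small-grained C4 cereal with an A and a B subgenome. All plants were grown hydroponically, total RNA was extracted, and the groups differed in the labelled calcium level only. The labels give no cultivar, plant age, calcium concentration or length of treatment. They speak of replicates without saying whether these were separate plants, so the p-values cover the spread between libraries alone, and that spread may be technical. All 5824 genes with values were taken, of 11458 listed IDs, and 5606 of them carry a description. The file heads them as target gene IDs and does not say which assay gave their reads, so "rose" and "fell" below refer to reads on these genes.

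Calcium stiffens plant cell walls by bridging pectin chains, and as a free ion in the cytosol it carries signals. It moves to the shoot in the xylem with the water stream and is hardly moved again in the phloem, so growing tissue depends on fresh supply. Exchangers and pumps load it into the vacuole or out of the cell. Calmodulins, calcineurin B-like proteins and calcium-dependent kinases read the signal, and calmodulin-binding transcription factors pass it to genes.

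The values are log2 of scaled reads plus 1 as deposited. A change is the low-calcium mean minus the optimum-calcium mean on this log2 scale, with its standard error (SE). Genes passed when the Benjamini-Hochberg adjusted p of limma, a linear model fitted across all genes and all 16 libraries, was under 0.05. Where 4 values are listed for a group, they stand in the order of replicates 1 to 4. Of all 5824 genes 39.4% passed, 18.5% as rises and 20.9% as falls, and each count for a gene group should be read against these percentages. The median change over all genes was -0.12 as deposited. Rescaled by median-ratio factors it was 0.00, and rescaled by the library totals 0.07. With scaling by the total all 1075 rises still passed, but 477 of the 1217 falls did, so small falls depend on the scale. In bulk tissue, fewer cells of a type and less RNA per cell cannot be told apart.

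The low-calcium libraries held 1.96 M ± 0.158 gene reads and the optimum-calcium ones 2.70 M ± 0.104 (in units of a megaread, SD, n = 4). The title of low-calcium replicate 4 names both tissues, and its source name is shoot. Green-tissue markers (17 genes, among them chlorophyll a-b binding proteins and Rubisco) took 8.22% of its reads, against 8.22% to 12.3% over the low-calcium shoots, 10.003% to 13.02% in optimum-calcium shoots and 0.348% to 0.906% in roots. Root markers (6 genes) took 0.124% to 0.177% of low-calcium shoot reads, with 0.131% in replicate 4. They took 0.112% to 0.210% of optimum-calcium shoot reads and 0.348% to 3.25% of root reads, and none of them passed in shoot. Casparian strip and high-affinity nitrate transporter genes, also sought as root markers, had no match. Replicate 4 lay farthest from the optimum-calcium group, with Spearman correlations across genes of 0.756 to 0.806, and replicate 3 closest, with 0.905 to 0.942. Without replicate 4, 861 genes rose and 715 fell, in place of 1075 and 1217.

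Rises were larger than falls in the deposited values. The 1075 genes that rose had a median size of 1.46, and 175 of them exceeded 3 on the log2 scale. Falls had a median size of 0.66, and 1 of the 1217 exceeded 3. The low-calcium and optimum-calcium libraries did not overlap in 1811 of all 5824 genes. That held for 758 of the 1075 rises and 824 of the 1217 falls. Which direction held more genes depended on the scaling, with 1214 rises and 830 falls under median-ratio factors, 1278 and 477 when values were scaled by library totals and 1132 and 515 by voom on the recovered reads. Rises also outnumbered falls without low-calcium replicate 4 (861 and 715), low-calcium replicate 2 (896 and 823) or optimum-calcium replicate 1 (888 and 845). The genes that rose had a median of 82.4 reads per shoot library, the genes that fell 302 and all genes 169.5. At optimum calcium 66.0% of the rises were more than 2-fold higher in root than in shoot. Of the falls 2.30% were, and of all genes 23.7%. The optimum-calcium shoot libraries entered both this comparison and the change, so a gene low in them was favoured in both. The part of root tissue in the rises was not tested.

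Sorted by function, 39 lists drawn from the descriptions took in 3128 genes. The plot of percentages per list shows rises concentrated in peroxidases and laccases, cuticle, cell wall and low-oxygen genes. The low-oxygen list held only 7 genes, of which 4 rose and 1 fell. Falls took the highest percentages among calcium sensing genes, abscisic acid genes, other kinases and phosphatases, and immune receptors with a nucleotide-binding site. The lists were made with results of these data known.

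**Figure D1:**
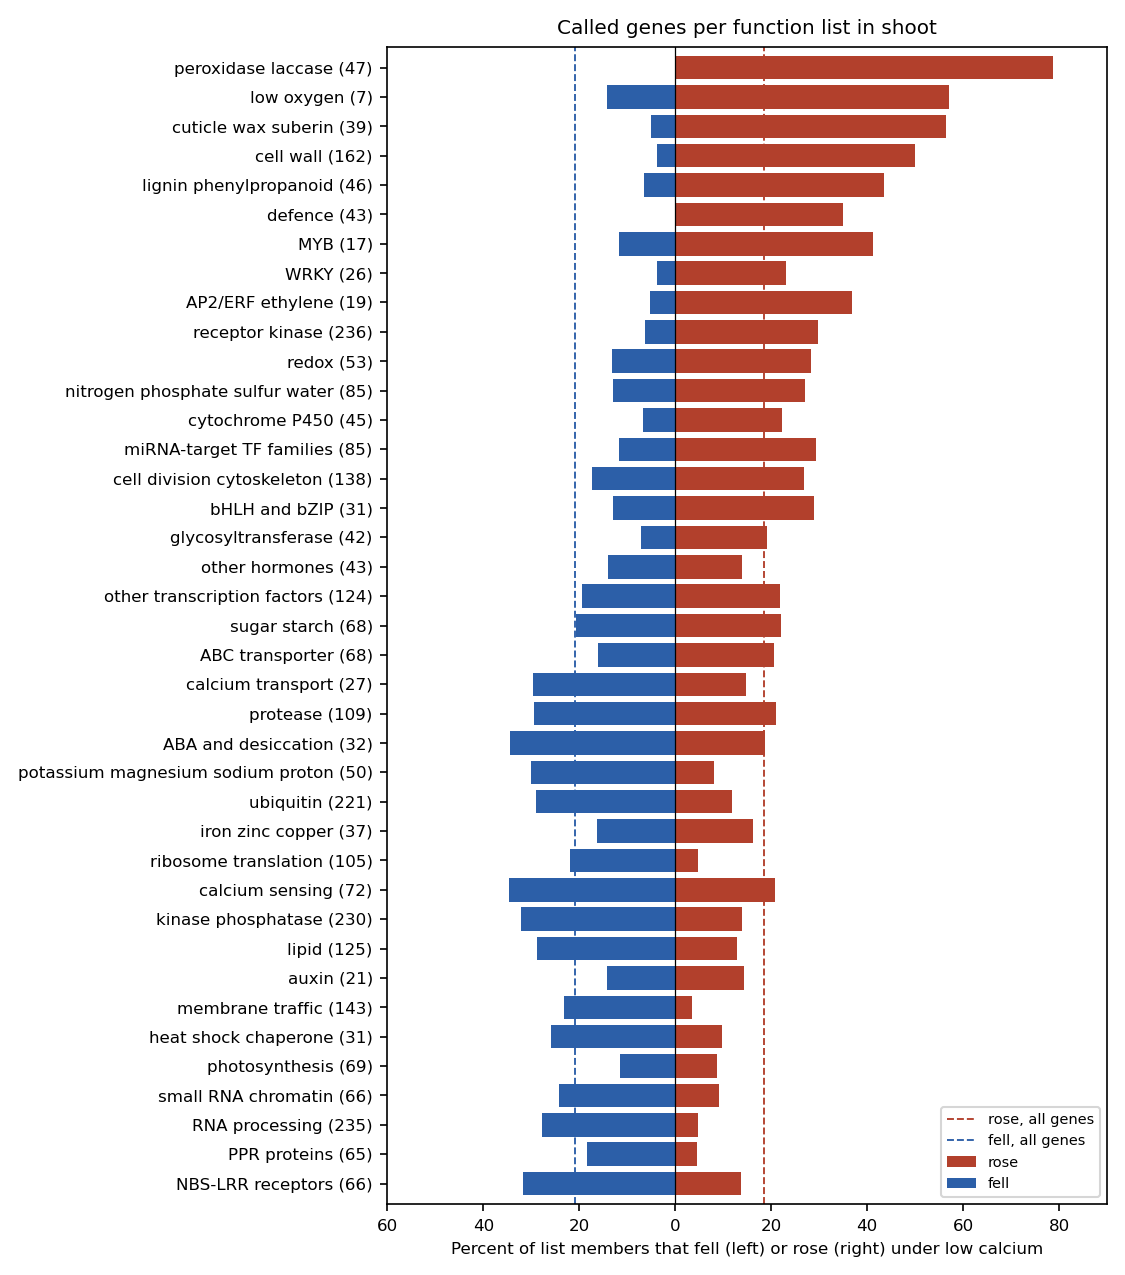
Bars give the percentage of the members of each function list that rose (right, red) or fell (left, blue) under low calcium in shoot by limma, with the number of members in brackets; dashed lines mark the percentages over all genes, 18.5% and 20.9%. Peroxidases and laccases rose most often, 37 of 47, and none of them fell.

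The 4 low-calcium libraries did not respond to the same extent in every function. Peroxidase and laccase genes lay above the optimum-calcium mean by a median of 1.63, 2.83, 1.76 and 3.24 in low-calcium replicates 1 to 4, and cell wall genes by 0.87, 1.01, 0.47 and 1.13. Photosynthesis genes stood at -0.16, -0.13, 0.04 and -0.84, low in replicate 4 alone. WRKY genes stood at -0.15, 1.28, 0.23 and 0.26, high in replicate 2 alone.

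**Figure D2:**
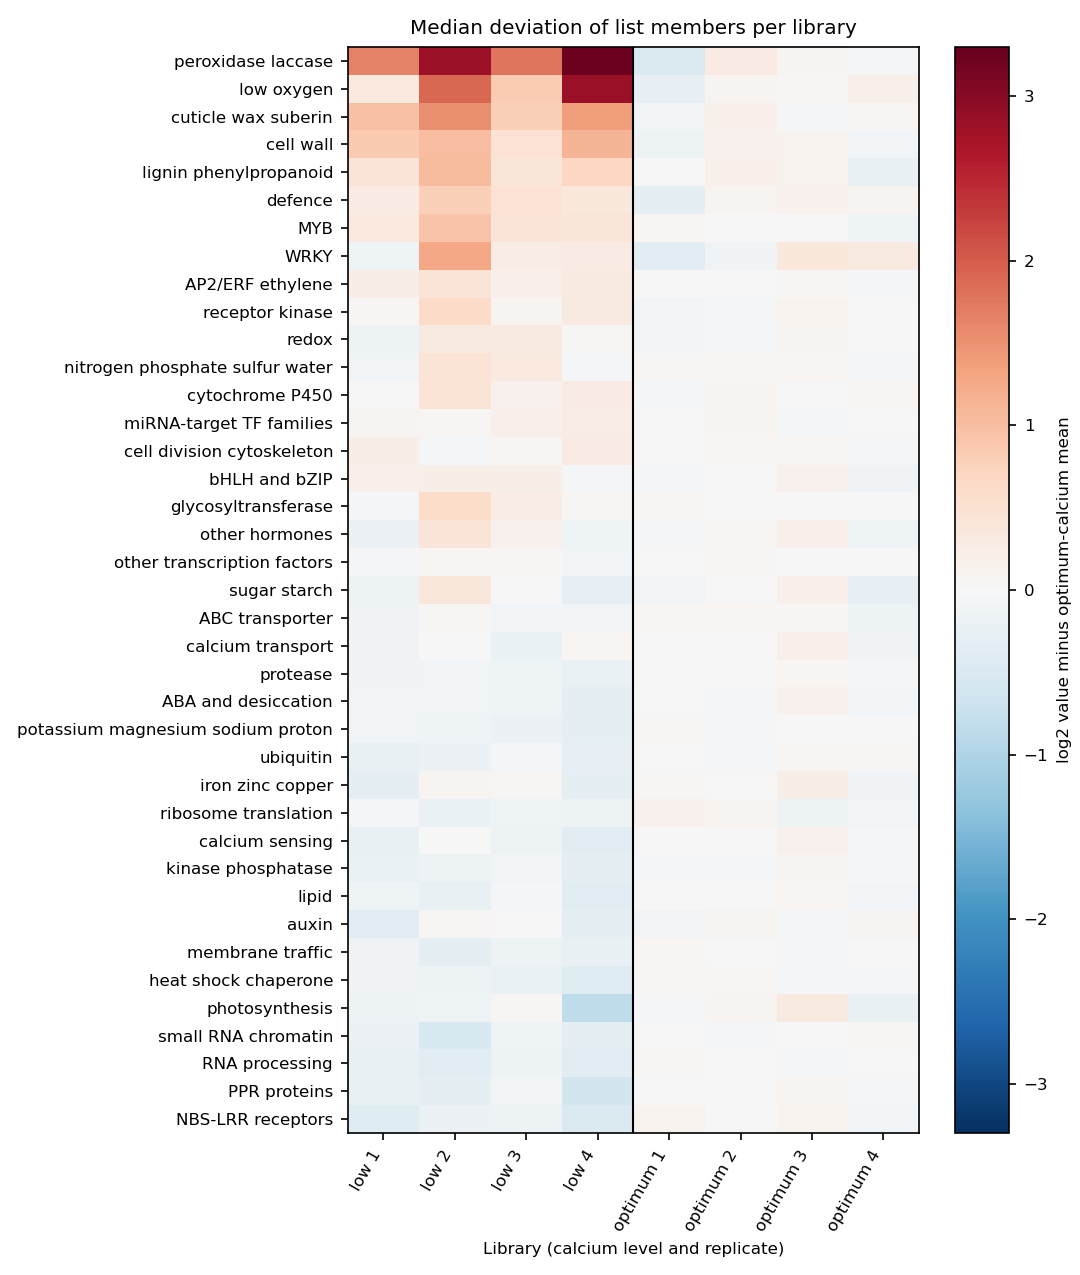
Colours give, for each function list and shoot library, the median over members of the log2 value minus the optimum-calcium mean of the gene; the vertical line parts the low-calcium from the optimum-calcium libraries. The top rows are red in all 4 low-calcium libraries, photosynthesis is blue in low-calcium replicate 4 (-0.84), and WRKY is red in low-calcium replicate 2 (1.28).

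Genes of the secondary wall, the thick layer laid down in xylem and fibres after a cell stops growing, rose together. Cellulose synthase subunits 7 and 9 belong to the group that builds its cellulose in rice, and all 5 genes described so rose, by 2.52 to 3.01. The level of subunit 7 (Et_1A_005975) was 11.03, 11.54, 10.06 and 11.34 under low calcium and 7.59, 8.82, 8.90 and 7.10 under optimum calcium, a change of 2.89 (SE 0.48, limma adjusted p 0.00036). Its second copy (Et_1B_010843) rose by 3.01. No low-calcium library overlapped an optimum-calcium one for any of the 5, as in 758 of all 1075 rises. Of 4 genes described as other cellulose synthase subunits, both genes of subunit 8 rose (1.93, Et_5A_041218, and 1.70, Et_7A_052430), while both copies of subunit 2 did not pass (0.14 and -0.17, Et_4A_035586 and Et_4B_038270).

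Fasciclin-like arabinogalactan protein 11, a wall glycoprotein of fibres and xylem, was among the largest rises of the cell wall list. Et_3A_027307 stood at 9.93, 10.27, 8.16 and 10.67 under low calcium and at 4.13, 5.07, 5.26 and 4.43 under optimum calcium, a change of 5.03 (SE 0.70, limma adjusted p 7.3e-05). The groups lay far apart, with replicate 3 lowest of the low-calcium libraries. The 14 kDa proline-rich protein DC2.15 (Et_7B_055014) rose by 5.62 (SE 0.70), and its replicate 3, at 5.60, was likewise below the other low-calcium libraries, which lay between 8.71 and 9.66. Among 17 genes of xylan synthesis, the main hemicellulose of grass walls, 8 rose and 4 fell. A UDP-glucuronate:xylan glucuronosyltransferase (Et_1B_013637) rose by 3.12 (SE 0.39) and a glucuronosyltransferase (Et_9B_064414) by 2.03 (SE 0.44).

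Laccases and class III peroxidases oxidise monolignols, the building blocks of lignin, in the wall. Of 18 laccases 14 rose and none fell, with a median change of 3.77. Laccase-5 (Et_3A_025396) stood at 6.34, 7.74, 6.65 and 7.55 under low calcium and at 1.56, 2.99, 2.13 and 1.83 under optimum calcium, a change of 4.94 (SE 0.49, limma adjusted p 4.2e-06). Laccase-4 (Et_3A_025399) rose by 4.43 and laccase-3 (Et_3A_026986) by 4.09. Laccase-25 was uneven among the optimum-calcium shoots as well. Its copy Et_10B_002866 stood at 1.56, 4.94, 1.09 and 6.35 there and at 6.97, 9.19, 8.74 and 8.57 under low calcium, which left the groups apart by less than 1 log2 unit (change 4.88, SE 0.93, limma adjusted p 0.0011). Of 29 class III peroxidases 23 rose and none fell, with a median change of 2.14, and by voom on the recovered reads 16 rose. Peroxidase 24-like (Et_10A_001744) rose by 4.24 (SE 0.56).

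Laccases and peroxidases together took 0.575% ± 0.227 of the gene reads under low calcium and 0.119% ± 0.0392 under optimum calcium (SD, n = 4), and cell wall genes took 2.46% ± 0.603 and 1.18% ± 0.0992. In both cases no libraries of the groups overlapped. A two-sided exact permutation test of 4 against 4 libraries gave p = 0.0286 for each, the smallest it can give, and 0.0743 after adjustment over the lists. In all, 15 of the 39 lists reached this smallest value. The marker set for secondary walls (24 genes) took 0.346% to 0.845% of low-calcium shoot reads, 0.059% to 0.137% of optimum-calcium shoot reads and 0.141% to 0.473% of root reads, and 20 of its genes rose. Most of this set is the 5 cellulose synthases and 18 laccases described above, so its rises repeat theirs. The part of cell composition in these rises was not tested.

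**Figure D3:**
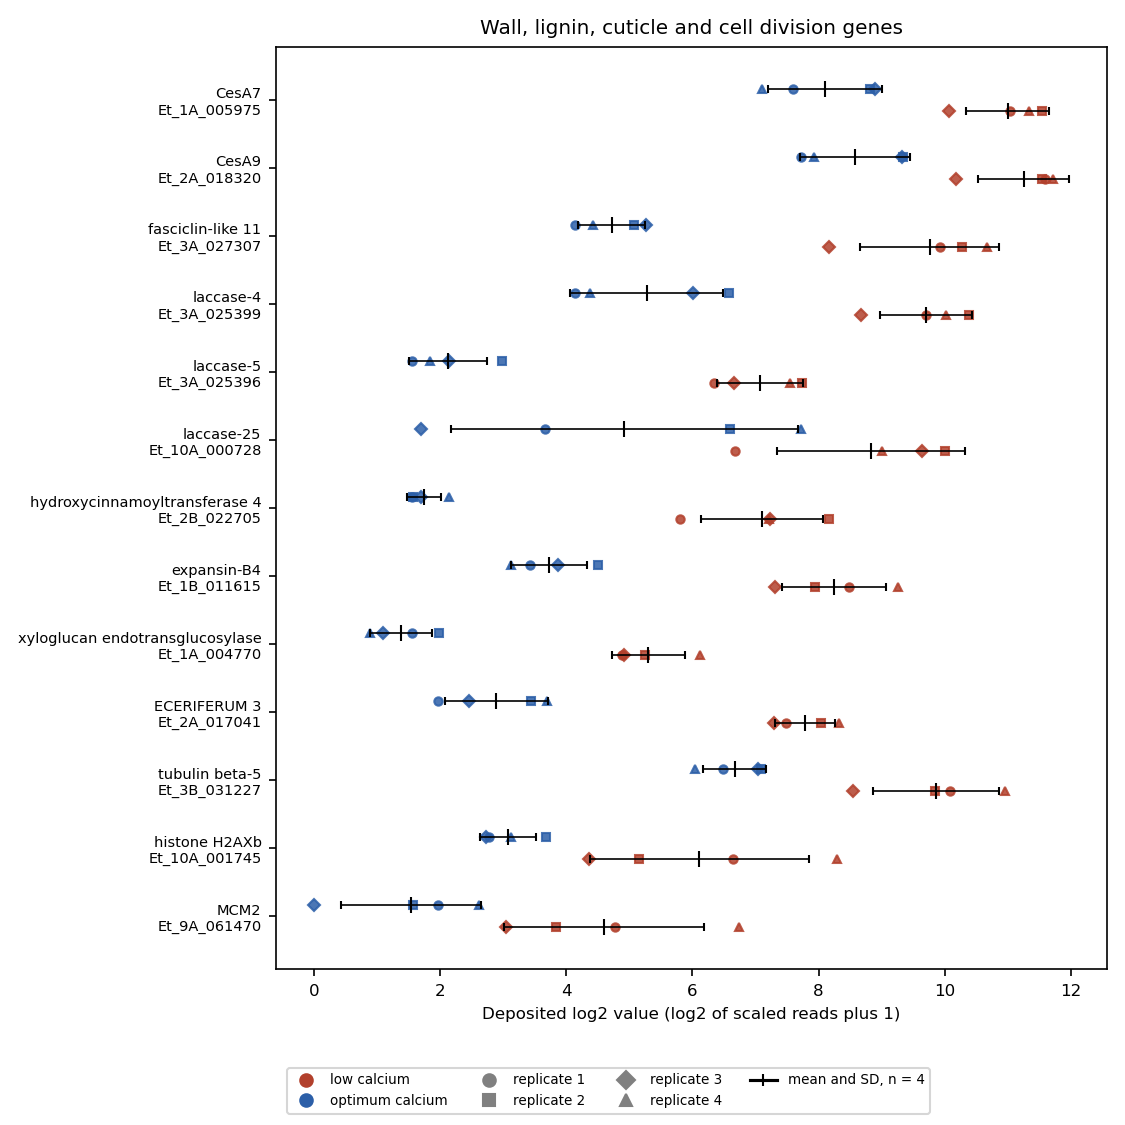
Points give the deposited log2 value of each shoot library (colour for calcium level, shape for replicate) for 13 genes of wall, lignin, cuticle and cell division, with the mean and SD of 4 libraries per group. For fasciclin-like 11 (Et_3A_027307) the low-calcium libraries lie between 8.16 and 10.67 and the optimum-calcium ones between 4.13 and 5.26, while laccase-25 (Et_10A_000728) overlaps.

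Enzymes that supply lignin precursors gave fewer calls. Phenylalanine ammonia-lyase, the entry enzyme, rose in 2 of 4 genes (1 without low-calcium replicate 2 or optimum-calcium replicate 1), and the gene with more reads (Et_1B_013364) rose by 1.40 (SE 0.28). Of 6 genes for 4-coumarate-CoA ligase 2 rose, and Et_1A_007428 (1.02, limma adjusted p 0.039) did not pass without any 1 of 6 libraries, low-calcium replicates 1, 2 and 4 and optimum-calcium replicates 1, 3 and 4. None of the 6 ligase genes rose without low-calcium replicate 2 or optimum-calcium replicate 3. Of 7 cinnamoyl-CoA reductases 1 rose and 2 fell, by 0.99 (Et_8A_057718), -0.72 (Et_2B_021142) and -0.41 (Et_2A_017148). Cytochrome P450 84A1 (Et_1B_011776), the family of ferulate 5-hydroxylase that leads to syringyl lignin, rose by 1.65 (SE 0.37).

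Hydroxycinnamoyl transferases, which attach phenolic acids to amines, alcohols and wall components, rose in 5 of 6 genes (median 3.68). Hydroxycinnamoyltransferase 4 (Et_2B_022705) stood at 5.80, 8.16, 7.22 and 7.22 under low calcium and at 1.56, 1.57, 1.70 and 2.14 under optimum calcium, a change of 5.35 (SE 0.55, limma adjusted p 4.9e-06). Summed over 4 libraries it had 519 reads under low and 10 under optimum calcium, a ratio per gene read of 71.3 with a 95% exact Clopper-Pearson interval of 38.5 to 150 that covers counting error only. Replicate 1 was lowest of the low-calcium libraries, and it was also lowest for a second gene of that name (Et_2B_019081, change 4.70) and for tryptamine hydroxycinnamoyltransferase (Et_1A_006238, 3.66).

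Walls of growing cells were represented as well. Expansins loosen walls during growth, and 9 of 13 rose with none falling (median 2.75). Expansin-B7 (Et_4A_033199) stood at 6.89, 6.05, 5.70 and 7.19 under low calcium and at 0.98, 0.99, 2.46 and 1.83 under optimum calcium, a change of 4.89 (SE 0.51, limma adjusted p 6.2e-06). Every low-calcium library was above every optimum-calcium one. Of 8 xyloglucan endotransglucosylases, which cut and rejoin hemicellulose chains, 4 rose, the largest by 3.91 (Et_1A_004770, SE 0.35). Pectin, the polymer that calcium bridges, was represented by 21 enzymes, of which 10 rose and 1 fell. The rises numbered 6 without optimum-calcium replicate 1 and 7 without low-calcium replicate 4. Pectin methyltransferase QUA2 (Et_1A_007274) rose by 1.96 (SE 0.33) and galacturonosyltransferase-like Et_4A_035959 by 2.19 (SE 0.39), whereas galacturonosyltransferase 4 (Et_8A_056610), an enzyme of pectin backbone synthesis, fell by 1.18 (SE 0.24). Callose synthases went both ways: callose synthase 7 (Et_3A_024029) rose by 1.87 and callose synthase 3 (Et_4A_032795) fell by 0.99.

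In the cuticle, the waxy layer over the shoot, 22 of 39 genes rose and 2 fell (median 1.11). Cytochrome P450 86A4, of a family of fatty acid hydroxylases that make cutin, had the largest rise of the table (Et_7A_053112, 7.31). It had 887 reads under low and 2 under optimum calcium (ratio 610, interval 168 to 5041). With so few optimum-calcium reads the size depends on the method, and by voom it was 8.21. Wax genes rose as well. ECERIFERUM 3, which takes part in alkane formation, stood at 7.48, 8.03, 7.29 and 8.32 under low calcium and at 1.97, 3.44, 2.46 and 3.70 under optimum calcium (Et_2A_017041, change 4.89, SE 0.49, limma adjusted p 4.3e-06). A fatty acid elongase, 3-ketoacyl-CoA synthase 5 (Et_1B_014244), rose by 2.64 (SE 0.38), and ECERIFERUM 26-like (Et_4B_037922) by 2.91 (SE 0.41). A GDSL lipase (Et_3B_030422) rose by 5.98, a glycerol-3-phosphate 2-O-acyltransferase (Et_1B_011034), an enzyme of cutin assembly, by 3.85. Outside the cuticle list, an ABC transporter of the G family (Et_2A_016645) rose by 5.83. The members that fell were both copies of glycerol-3-phosphate acyltransferase 3 (Et_5A_042320, -0.58, and Et_5B_044989, -0.44), and neither passed with scaling by the total.

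Cell division genes rose unevenly among the low-calcium shoots. Of 138 genes for division and cytoskeleton 37 rose and 24 fell (median 0.17), and without low-calcium replicate 4 the rises numbered 25. Kinesins, the motors of spindle and cell plate, rose in 8 of 22 genes and fell in 1. Without low-calcium replicate 1 or 4 or optimum-calcium replicate 4, 5 kinesins rose, and without low-calcium replicate 3, 13 did. Of 5 cyclins 2 rose and 3 fell (median -0.43), and they took fewer of the reads under low calcium, 0.026% to 0.034% against 0.035% to 0.045%. Of 18 DNA replication genes 5 rose and 3 fell, and 1 rose and 1 fell by voom or without low-calcium replicate 4. Without low-calcium replicate 3, 8 of them rose. Histones rose in 4 of 6 genes. Histone H2AXb (Et_10A_001745) stood at 6.64, 5.15, 4.35 and 8.28 under low calcium and at 2.77, 3.69, 2.73 and 3.12 under optimum calcium, a change of 3.03 (SE 0.63, limma adjusted p 0.0019). Replication licensing factor MCM2 (Et_9A_061470) stood at 4.77, 3.84, 3.05 and 6.73 against 1.97, 1.57, 0.00 and 2.61, a change of 3.06 (SE 0.67). Both were highest in replicate 4, followed by replicate 1, and lowest in replicate 3. Growth-regulating factor 6, a regulator of leaf growth, followed the same order of libraries and rose by 2.37 (Et_4A_033691) and 2.43 (Et_4B_039612). Of all 4 growth-regulating factors 2 rose and none fell, and 2 had a mean of at least 20 reads. Fitted on the shoot libraries alone, 1 rose and 1 fell.

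The marker set of dividing cells (28 genes) consists of the 22 kinesins and 6 histones described above. These genes took 0.131% to 0.257% of low-calcium and 0.110% to 0.140% of optimum-calcium shoot reads, so these ranges overlapped. The part of dividing cells in these differences was not tested either. Of 6 tubulins, the building blocks of microtubules, 1 rose and none fell (median -0.01). The one that rose was tubulin beta-5 (Et_3B_031227), by 3.19 (SE 0.46). Microtubule-associated proteins rose in 6 of 10 genes and none fell, and the microtubule-bundling protein MAP65-1 (Et_2B_022025) rose by 3.08 (SE 0.45). Both copies of the actin motor myosin-2 fell, by 1.32 (Et_8B_060658) and 1.10 (Et_8A_058310).

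Among transcription factors, rises outnumbered falls for MYB (7 of 17 rose, 2 fell), WRKY (6 of 26 and 1) and AP2/ERF and ethylene genes (7 of 19 and 1). Without low-calcium replicate 2, 3 WRKY and 3 AP2/ERF and ethylene genes rose, and without low-calcium replicate 3, 4 of the latter fell. WRKY76, known in rice as a regulator of defence, stood at 6.76, 9.06, 7.90 and 8.40 under low calcium and at 4.05, 4.84, 2.96 and 4.24 under optimum calcium (Et_2B_020390, change 4.01, SE 0.44, limma adjusted p 1.0e-05). MYB61 (Et_3B_028966), which in rice promotes secondary wall cellulose synthesis, rose by 1.93 (SE 0.45), and MYB4 (Et_1A_008495) by 1.96 (SE 0.42). Of the falls, both copies of the phosphate-starvation-type factor PHL7 (Et_9B_064680 and Et_9A_062124, -0.50 and -0.47) did not pass with scaling by the total.

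Families that conserved plant miRNAs target held 85 genes, of which 25 rose and 10 fell. NAC77 (Et_10A_001237) stood at 7.03, 8.27, 7.71 and 7.94 under low calcium and at 3.55, 3.89, 2.73 and 5.06 under optimum calcium, a change of 3.93 (SE 0.37, limma adjusted p 2.6e-06). Auxin response factor 6 (Et_1B_012151), an activator of auxin-induced genes, rose by 2.98 (SE 0.40), whereas auxin response factor 16 (Et_2A_017624) fell by 1.01 (SE 0.26). NAC7 (Et_1B_013297) fell by 1.17, a call lost without low-calcium replicate 2 or 4 or optimum-calcium replicate 1 or 3. Class III homeobox-leucine zipper proteins, which pattern xylem and leaf surfaces and are targets of miR166, rose in 4 of 8 genes: HOX9 by 2.36 (Et_1B_010799, SE 0.23) and 1.57 (Et_1A_005917), and HOX33 by 1.43 (Et_10A_001087) and 1.30 (Et_10B_003225). None of these 4 overlapped between groups, as in 758 of all 1075 rises.

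Other regulators rose from near 0. HOX28 (Et_2B_022214) stood at 6.42, 5.30, 2.82 and 7.50 under low calcium and at 0.98, 0.00, 1.09 and 1.44 under optimum calcium (273 against 4 reads, ratio 93.8, interval 36.2 to 347). Heat stress factor B-4c (Et_2B_022339) had 184 reads under low and 3 under optimum calcium (ratio 84.3, interval 28.4 to 413), with 7.30 in replicate 4, 5.38 in replicate 1 and 2.32 and 2.22 in replicates 2 and 3. Both shared the order of libraries seen for histone H2AXb. The bZIP factor TGAL4 (Et_6B_048947) and bHLH110 (Et_2B_021622) fell by 1.50 (SE 0.20) and 1.47 (SE 0.26), without overlap between groups.

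Receptor kinases, which sense peptides, wall fragments and microbes at the cell surface, rose in 70 of 236 genes and fell in 15 (median 0.25). Without low-calcium replicate 4, 54 rose, and without optimum-calcium replicate 1, 9 fell. The receptor TDR, which in Arabidopsis keeps the vascular cambium dividing, stood at 6.06, 5.40, 4.73 and 7.20 under low calcium and was at 0.98, 0.00, 0.00 and 0.00 under optimum calcium (Et_8B_059519). It had 244 reads against 1, a ratio per gene read of 335 with an interval of 59.6 to 13300, and a change of 5.60 (SE 0.41, limma adjusted p 4.1e-07). Leucine-rich repeat receptor kinases as a whole rose in 29 of 77 genes and fell in 8, or 5 without optimum-calcium replicate 1 or 3. Wall-associated kinases, which bind pectin, rose in 5 of 24 genes. Wall-associated receptor kinase 1 (Et_4A_034723) rose by 1.91 (SE 0.21), while OsWAK26 (Et_4B_037444) fell by 1.46 (SE 0.24).

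Defence proteins rose in 15 of 43 genes and none fell, although 4 fell without optimum-calcium replicate 4. Pathogenesis-related protein 1 (Et_4A_035097) stood at 7.79, 9.50, 8.18 and 9.67 under low calcium and at 4.66, 5.38, 4.07 and 6.53 under optimum calcium, a change of 3.63 (SE 0.60, limma adjusted p 0.00034). Chitinase 8 (Et_1B_011667), an enzyme against fungal walls, rose by 1.77 (SE 0.43). Intracellular immune receptors of the NBS-LRR class went the other way, with 21 of 66 lower and 9 higher (median -0.36), though with scaling by the total the counts were 10 and 9. The rises numbered 3 without low-calcium replicate 4 or optimum-calcium replicate 1, 4 without low-calcium replicate 1, and 5 without low-calcium replicate 2 or optimum-calcium replicate 3 or 4. RPP13-like protein 2 (Et_9B_064023) fell by 1.20 (SE 0.26) and RPS2 (Et_4A_034861) rose by 1.53 (SE 0.41).

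Genes that move calcium changed in both directions. Of 27 calcium transport genes 4 rose and 8 fell (median -0.13). The vacuolar exchangers of the CAX type load calcium into the vacuole, and 2 of 3 fell under the deposited, median-ratio and total scalings. CAX1a (Et_3B_028509) stood at 8.26, 9.48, 9.64 and 8.92 under low calcium and at 11.26, 11.36, 11.84 and 12.04 under optimum calcium, and exchanger 2 (Et_4B_037006) at 5.49, 5.92, 4.59 and 6.08 against 6.55, 6.23, 6.70 and 6.82 (change -1.05, SE 0.26, limma adjusted p 0.0055). Groups did not overlap in either gene. The cation/calcium exchanger 1 (Et_10A_001931), of another exchanger family, rose by 1.64 (SE 0.51), a call lost without low-calcium replicate 2 or optimum-calcium replicate 3. None of the 3 calcium ATPases passed.

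Mechanically gated channels, which open when a membrane is stretched, fell in 4 of 8 genes and rose in 1. The osmosensing channel CSC1-like RXW8 (Et_10B_003543) fell by 1.16 (SE 0.30) and both piezo channels by 0.89 (Et_3B_028319) and 0.88 (Et_3A_023857). Mechanosensitive channel 6 (Et_1A_008386) rose by 1.43 (SE 0.35), from between 4.18 and 5.34 to between 5.42 and 7.02, without overlap. Its change was more positive in shoot than in root by 1.8 (limma adjusted p of the difference 0.036); over all genes 7.40% differed in this way.

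Calcium decoding proteins fell more often than they rose, with 25 of 72 lower and 15 higher, but with scaling by the total 12 were lower and 17 higher. All 8 calmodulin-binding transcription activators (CAMTA), which link calcium signals to defence and cold genes, fell by 0.43 to 1.02, and 3 of them still fell with scaling by the total and 6 with median-ratio factors. Without low-calcium replicate 4, 5 of them fell. CAMTA4 (Et_3B_030137) stood at 7.23, 6.71, 6.83 and 6.84 under low calcium and at 8.05, 8.12, 8.09 and 7.42 under optimum calcium, a change of -1.02 (SE 0.17, limma adjusted p 0.00042). The groups did not overlap. Calcium-dependent protein kinase 12 (Et_7B_054972) fell by 1.10 (SE 0.24), and calcium-dependent protein kinase 4 (Et_1A_007932) by 1.63, where optimum-calcium replicate 3 stood at 12.02 and the other 3 between 9.73 and 10.42.

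Respiratory burst oxidases, calcium-binding enzymes that make superoxide outside the cell, rose in 5 of 7 genes and none fell. Homolog B (Et_10B_003796) stood at 5.72, 6.59, 5.40 and 7.10 under low calcium and at 0.98, 2.57, 2.46 and 1.44 under optimum calcium, a change of 4.34 (SE 0.46, limma adjusted p 6.3e-06) and a read ratio of 31.6 (interval 17.8 to 61.9). A second gene of that name (Et_3A_023793) rose by 2.53 (SE 0.31). Of 15 rises among calcium decoding genes these oxidases make up 5.

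**Figure D4:**
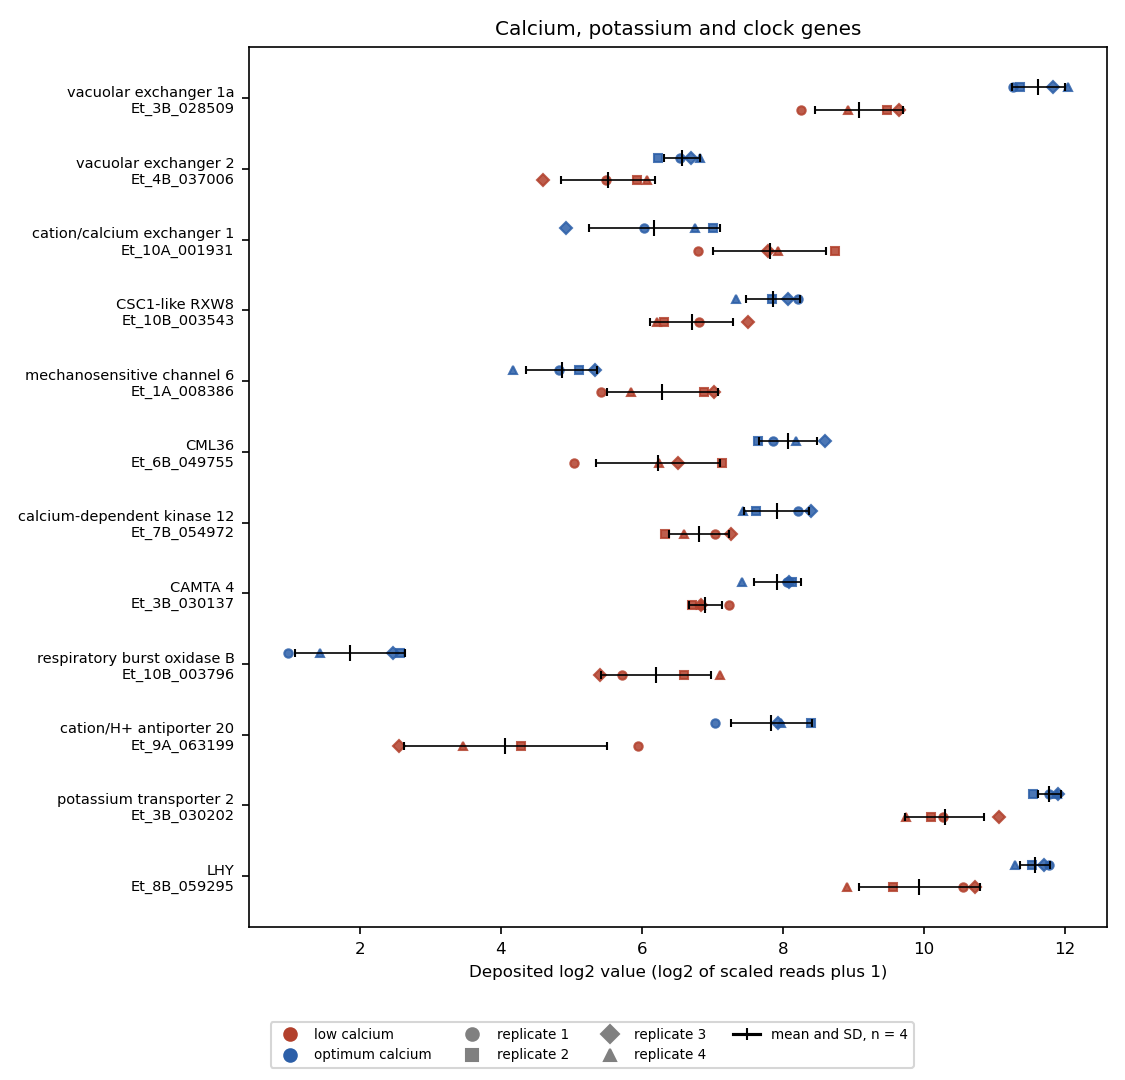
Points give the deposited log2 value of each shoot library (colour for calcium level, shape for replicate) for 12 calcium, potassium and clock genes, with the mean and SD of 4 libraries per group. CAX1a (Et_3B_028509) lies between 8.26 and 9.64 under low and between 11.26 and 12.04 under optimum calcium, and respiratory burst oxidase B (Et_10B_003796) moves the other way, from at most 2.57 to at least 5.40.

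Potassium transporters fell in 7 of 16 genes and none rose, and 5 fell with scaling by the total and 4 without low-calcium replicate 4 or optimum-calcium replicate 3. Potassium transporter 2 (Et_3B_030202) stood at 10.27, 10.10, 11.07 and 9.74 under low calcium and at 11.78, 11.55, 11.90 and 11.89 under optimum calcium, a change of -1.48 (SE 0.22, limma adjusted p 0.00011). Its copy Et_3A_025833 fell by 1.22. Cation/H+ antiporter 20 (Et_9A_063199), which in Arabidopsis acts in guard cells, had the largest fall of the table, from between 7.04 and 8.40 to 5.94, 4.29, 2.55 and 3.46. Plasma membrane ATPase 1 (Et_10A_000424), the proton pump that energises uptake and acidifies the wall, rose by 1.57 (SE 0.32), and the anion channel SLAH2 (Et_9A_062991) by 2.01 (SE 0.51).

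Metal genes were split, with 6 of 37 higher and 6 lower. Heavy metal-associated isoprenylated protein 39 (Et_4B_039347) stood at 9.30, 9.69, 8.98 and 10.08 under low calcium and at 4.96, 6.97, 5.03 and 6.18 under optimum calcium, a change of 3.73 (SE 0.44, limma adjusted p 1.9e-05) that was more positive in shoot than in root by 4.7 (limma adjusted p of the difference 0.00047). Protein 9 of this family (Et_6B_049697) rose by 3.59 (SE 0.43). Zinc transporter 8 (Et_5B_043879) fell by 1.14, which did not pass with scaling by the total or with median-ratio factors. That call was also lost without low-calcium replicate 1, 3 or 4 or optimum-calcium replicate 2 or 3.

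Of 85 genes for nitrogen, phosphate, sulfur and water transport and assimilation 23 rose and 11 fell. The rises numbered 14 without low-calcium replicate 2 or 4 or optimum-calcium replicate 1. The falls numbered 3 without low-calcium replicate 4, 7 without low-calcium replicate 2 and 6 without optimum-calcium replicate 1 or 3. Asparagine synthetase (Et_4A_035945), which stores nitrogen as asparagine, stood at 12.11, 13.11, 12.35 and 12.90 under low calcium and at 7.31, 9.27, 6.62 and 10.82 under optimum calcium, a change of 4.12 (SE 0.74, limma adjusted p 0.0007). The groups stayed apart although the optimum-calcium shoots ranged widely. Oligopeptide transporter 4 (Et_1B_013097) rose by 3.40, the water channel TIP1-1 of the vacuole membrane (Et_4A_031850) by 1.52 and the plasma membrane channel PIP2-6 (Et_5A_040899) by 2.46. Nitrate and peptide transporters rose in 10 of 30 genes, or in 6 without low-calcium replicate 2 or 4 or optimum-calcium replicate 1. They fell in 2, and in none without low-calcium replicate 1 or 4. Of 11 phosphate transporters 4 fell and none rose, with scaling by the total 3 fell and 1 rose, and without low-calcium replicate 4 the falls numbered 2. PHO1-3 (Et_2B_022086), of a family that exports phosphate to the xylem, fell by 1.66 (SE 0.50), a call lost without low-calcium replicate 4.

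Of 69 photosynthesis genes 6 rose and 8 fell, counts that moved with single libraries. The falls numbered 17 without low-calcium replicate 3 and 14 without optimum-calcium replicate 4, but 3 without low-calcium replicate 4 and 5 without optimum-calcium replicate 3. The rises numbered 2 without optimum-calcium replicate 1 and 3 without low-calcium replicate 2. As a list they took 15.1% ± 2.89 of the low-calcium and 17.2% ± 2.24 of the optimum-calcium shoot reads (SD, n = 4), ranges that overlapped (exact permutation p = 0.286). Within chlorophyll synthesis, protochlorophyllide reductase (Et_7B_055072) stood at 13.06, 13.23, 12.33 and 12.64 under low calcium and at 10.75, 11.79, 11.04 and 12.09 under optimum calcium, a change of 1.40 (SE 0.27, limma adjusted p 0.0013). Chlorophyllide a oxygenase, which makes chlorophyll b, fell by 1.15 (Et_3A_025936) and 1.08 (Et_3B_030303), both lost without low-calcium replicate 4 and the first also without optimum-calcium replicate 3.

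Of 11 C4 enzymes 4 rose and 3 fell. Phosphoenolpyruvate carboxylase 1, which fixes bicarbonate in mesophyll cells, rose by 0.97 (Et_1B_014155) and 0.79 (Et_1A_007735), and phosphoenolpyruvate carboxykinase (Et_4B_039028) by 0.97 (SE 0.18). Mitochondrial NAD-malic enzyme, which releases carbon dioxide in the bundle sheath of C4 grasses of its subtype, stood at 13.49, 12.92, 13.86 and 11.84 under low calcium and at 14.37, 14.33, 14.39 and 13.49 under optimum calcium (Et_1A_007018, change -1.11, SE 0.32, limma adjusted p 0.014). Low-calcium replicate 3 lay within the optimum-calcium range and replicate 4 was lowest. Without replicate 4, 1 C4 enzyme rose and 2 fell, and both carboxylase calls were lost, as they also were without optimum-calcium replicate 1, where 1 enzyme rose. Without low-calcium replicate 2, 2 rose.

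Of 14 clock and photoperiod genes 8 fell and 1 rose, and 6 fell with scaling by the total. LHY, a morning factor of the circadian clock, stood at 10.56, 9.56, 10.73 and 8.91 under low calcium and at 11.77, 11.53, 11.70 and 11.29 under optimum calcium (Et_8B_059295, change -1.64, SE 0.33, limma adjusted p 0.0017). Its copy Et_8A_056932 fell by 1.43. GIGANTEA (Et_3B_030834), an evening component, fell by 0.80 (SE 0.17) and PRR73 by 0.78 (Et_4B_039163) and 0.75 (Et_4A_035017). Each of LHY, GIGANTEA and PRR73 was lowest in low-calcium replicate 4. The labels give no time of day of sampling.

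Starch synthases fell in 4 of 5 genes. Granule-bound starch synthase 1b, which makes amylose, stood at 10.63, 9.26, 10.52 and 8.78 under low calcium and at 12.03, 11.24, 11.37 and 10.51 under optimum calcium (Et_5B_043659, change -1.49, SE 0.36, limma adjusted p 0.0052), so replicates 1 and 3 overlapped the lowest optimum-calcium library. Starch synthase 3 fell by 1.27 (Et_7B_054668) and 1.09 (Et_7A_052018). Sucrose synthase 2, which breaks sucrose down for walls and under low oxygen, rose by 4.03 (Et_4A_032822) and 2.01 (Et_4B_037022). The first stood at 11.42, 10.54, 8.58 and 12.19 under low calcium, above 6.39 to 7.01 under optimum calcium, and rose more than in root by 4.9 (limma adjusted p of the difference 0.0016). Non-symbiotic hemoglobin (Et_1A_007077), another gene of low oxygen, rose by 2.38 (SE 0.61), with 4.83 in replicate 1 and 7.36 to 7.91 in the other 3.

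The basic machinery of gene expression moved by small amounts. Of 235 RNA processing genes 65 fell and 11 rose (median -0.28), of 143 membrane traffic genes 33 and 5 (-0.22), of 221 ubiquitin genes 64 and 26 (-0.18), and of 105 ribosome and translation genes 23 and 5 (-0.19). With scaling by the total these falls numbered 14, 7, 14 and 4, so most of them depended on the scale. Without low-calcium replicate 4 they numbered 37, 20, 42 and 11. Those of RNA processing numbered 35 without low-calcium replicate 2 and 39 without optimum-calcium replicate 1, those of ubiquitin 42 and 41, and those of membrane traffic 20 without optimum-calcium replicate 1. Those of ribosome and translation numbered 11 or 12 without low-calcium replicate 2 or optimum-calcium replicate 1 or 2. Rises numbered 17 for ubiquitin without low-calcium replicate 4. With 1 library left out they ranged from 2 to 7 for membrane traffic, lowest without low-calcium replicate 4 or optimum-calcium replicate 3, and from 1 to 8 for ribosome and translation, lowest without the same libraries and highest without low-calcium replicate 3. Ribosomal proteins of cytosol and chloroplast (22 genes) did not share these falls. Of these 3 rose and none fell, and all changes were positive, from 0.09 to 0.71 (median 0.35). They took 0.391% to 0.557% of low-calcium and 0.304% to 0.357% of optimum-calcium shoot reads. Of 19 tRNA ligases 5 fell and none rose, and 1 fell with scaling by the total. The intron splicing facilitator CRS (Et_8B_058876) fell by 1.19 (SE 0.27) and both copies of the elongation factor TypA-like SVR3 by 1.54 (Et_1A_007243) and 1.46 (Et_1B_012054). In the protease list 23 of 109 genes rose and 32 fell, or 20 without low-calcium replicate 4, and FTSH 2 (Et_2B_020976) fell by 1.25 (SE 0.30). These 4 passed with scaling by the total as well. SVR3 (Et_1A_007243) stood at 10.96, 10.35, 11.41 and 9.66 under low calcium and at 12.52, 12.06, 12.60 and 11.34 under optimum calcium, so that only low-calcium replicate 3 reached the optimum-calcium range. Another protease of the family, FTSH 6 (Et_2B_021779), rose by 5.04 (SE 0.70).

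The small RNA machinery was among the genes listed. Argonaute 1B, of the protein family that carries miRNAs to their targets, fell by 1.00 (Et_7A_052294, SE 0.24) and 0.92 (Et_7B_054938), and passed under the median-ratio and total scalings too. It stood at 10.59, 9.82, 10.96 and 9.89 under low calcium and at 11.21, 11.19, 11.54 and 11.30 under optimum calcium for Et_7A_052294, without overlap. Argonaute 4A, of the branch that directs DNA methylation, rose by 1.04 (Et_3A_024760) and 1.03 (Et_3B_029435). Of 6 Dicer genes, which cut small RNA precursors, 3 fell, and none did with scaling by the total. The changes of Dicer homolog 1 were -0.60 (Et_4A_032425) and -0.44 (Et_4B_039236).

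Of 21 auxin genes 3 rose and 3 fell, and of 43 genes of other hormones 6 rose and 6 fell. The auxin falls numbered 1 without low-calcium replicate 2 or optimum-calcium replicate 1 and 5 without low-calcium replicate 1. For the other hormones 3 rose without low-calcium replicate 2 or optimum-calcium replicate 1, and 3 fell without low-calcium replicate 4. The auxin repressor IAA31 (Et_10A_001437) stood at 7.89, 7.88, 6.39 and 8.21 under low calcium and at 3.55, 4.79, 4.63 and 4.43 under optimum calcium, a change of 3.24 (SE 0.38, limma adjusted p 1.8e-05). PINOID (Et_10B_003060), a kinase that steers auxin transporters, rose by 3.52 (SE 0.44). Thermospermine synthase ACAULIS5 (Et_1B_012528), which in Arabidopsis restrains xylem differentiation, fell by 1.60 (SE 0.27), from between 8.67 and 9.82 to between 7.14 and 8.43 without overlap. The ethylene regulator EIN3-binding F-box protein 1 (Et_2B_019050) rose by 1.32 (SE 0.23). Of 32 genes for abscisic acid and desiccation 6 rose and 11 fell, and the falls numbered 7 without low-calcium replicate 4 or optimum-calcium replicate 1. The largest rises were those of 2 late embryogenesis abundant proteins of group 3, a family that protects drying cells. Et_4A_034454 stood at 7.34, 10.61, 9.35 and 9.0 under low calcium and at 1.97, 1.57, 1.70 and 2.40 under optimum calcium, a change of 7.16 (SE 0.62), and Et_4B_038582 rose by 4.78 (SE 0.61). Groups did not overlap in either gene, and replicate 1 was lowest of the low-calcium libraries in both. Protein phosphatase 2C 41 (Et_7A_051189) fell by 1.13 (SE 0.19), and with scaling by the total 4 of the list fell and 7 rose.

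Of 125 lipid genes 16 rose and 36 fell (median -0.21), but 21 rose and 15 fell with scaling by the total. Without low-calcium replicate 4, 9 rose and 20 fell, and without low-calcium replicate 2, 21 fell. Of 53 redox genes 15 rose and 7 fell, or 18 and 2 with scaling by the total. The redox rises numbered 8 without low-calcium replicate 2, and the falls 2 without low-calcium replicate 4 and 4 without low-calcium replicate 1 or optimum-calcium replicate 3. Phospholipase D alpha 1, which makes phosphatidic acid, stood at 6.98, 6.67, 6.30 and 7.63 under low calcium and at 1.97, 1.99, 3.33 and 2.61 under optimum calcium (Et_4B_036989, change 4.42, SE 0.37, limma adjusted p 1.0e-06), and its copy Et_4A_032776 rose by 4.60. A phosphatidylinositol-3-phosphate 5-kinase fell by 1.48 (Et_8A_057783) and 1.37 (Et_8B_060140). In the chloroplast redox system, thioredoxin F fell by 1.22 (Et_3B_027993) and 0.90 (Et_3A_023518), both lost without low-calcium replicate 4, and the second also without any 1 of 5 other libraries. L-ascorbate oxidase (Et_2A_017293), a wall enzyme, rose by 2.47 (SE 0.64).

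Counts of calls in the 2 subgenomes were close, with no test made of their difference. Of 2838 genes on A chromosomes 18.9% rose and 21.1% fell, and of 2969 on B chromosomes 18.2% and 20.6%. Pairs of copies were defined as 1 gene on an A and 1 on the B chromosome of the same number that alone share a description, which gave 1234 pairs. Both copies rose in 153 pairs and both fell in 203, in 305 pairs 1 copy passed, and in 571 neither did. Changes had the same sign in 85.1% of pairs and differed by a median of 0.20. How reads were divided between near-identical copies is not given, so likeness within a pair may be counted too high.

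**Figure D5:**
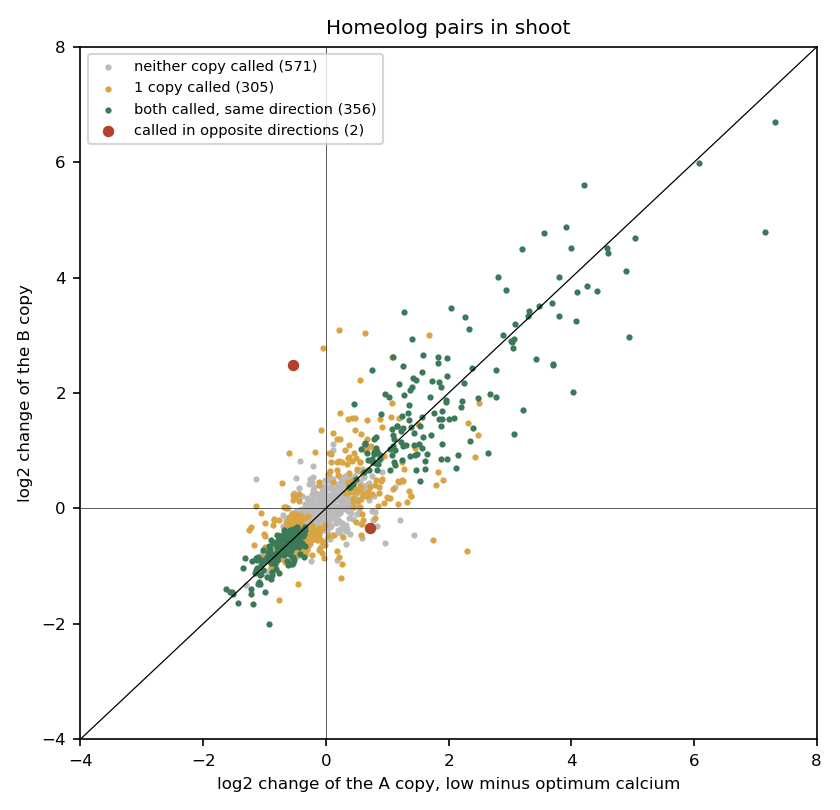
Each point is a pair of genes with the same description on the A and B chromosome of 1 number, with the log2 change of the A copy across and that of the B copy up; the line marks equal changes and colours give which copies passed. Most pairs lie along the line, and 2 passed in opposite directions.

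The 2 pairs called in opposite directions were aminopeptidase M1-C and an NADH-cytochrome b5 reductase-like protein. Aminopeptidase M1-C acts on peptides and, in Arabidopsis, in auxin transport and division. Its A copy (Et_2A_016446) was the abundant one and fell by 0.54 (SE 0.15), which did not pass with scaling by the total, while the B copy (Et_2B_020537) stood at 6.22, 6.45, 5.83 and 7.04 under low calcium and at 3.77, 4.31, 4.41 and 3.12 under optimum calcium, a rise of 2.48 (SE 0.28, limma adjusted p 1.0e-05). Sucrose synthase 2 was a pair with both copies higher but by different amounts, 4.03 for the A copy (Et_4A_032822) and 2.01 for the B copy (Et_4B_037022).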

How the data were processed

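The deposited gene values of 16 libraries are log2 of scaled reads plus 1, per the file's values; how the authors aligned, counted and scaled them, and against which genome build, is not stated. Whole reads were recovered from each library's step (100% of 5824 values within 0.1 of a whole read). The authors deposited small RNA reads per length as other counts, used as percentages. Gene values were fitted with limma 3.58.1 (R 4.3.3), with the mean-variance trend, 1 coefficient per group of tissue and calcium level and Benjamini-Hochberg adjustment over 5824 genes. Tables were handled in pandas 2.3.3 under Python 3.11.15. Permutation tests and intervals came from scipy 1.17.1 on numpy 2.4.6, and plots from matplotlib 3.10.9. On simulated data 74% of 2-fold and 100% of 4-fold changes were called, and 0.16% of unchanged genes. The simulated counts had the same dispersion for every gene and no shared variation among the genes of a library. Changed genes numbered 100 per fold and were not drawn from those with few reads. These rates are therefore not error rates of the calls reported here.

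Members, lists and subgroups were chosen with earlier results of these data known, and patterns were corrected after the descriptions were read. By rule, the text names up to 2 rises and 2 falls per list with a mean of at least 20 reads, 6 rises and 6 falls outside lists and the 6 called genes with most reads. Not all of these are printed, and other subgroup members were named after their values were seen. Alternatives were median-ratio and total scaling, an offset of 0.1, a minimum of 20 reads, shoot libraries alone, a replicate block, voom, and leaving out each library.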

Additional observations from a re-analysis of the deposited data

Results flagged for a closer look

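In 54 of the 143 genes named, the log2 change in shoot differed from that in root by limma's test of the difference (adjusted p from 0.00022 to 0.049), against 7.40% of all genes. Most of the named genes were chosen for large changes in shoot, so this share describes the choice. The difference, shoot minus root, was positive in 47 and negative in 7.

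For cell walls it was 2.37 (Et_1A_005975) and 2.53 (Et_1B_010843) for cellulose synthase 7, and 1.69 (Et_5A_041218) for cellulose synthase 8. Fasciclin-like protein 11 gave 5.28 (Et_3A_027307) and the proline-rich protein DC2.15 4.96 (Et_7B_055014). The xylan glucuronosyltransferase gave 2.25 (Et_1B_013637), expansin-B7 3.69 (Et_4A_033199) and the xyloglucan endotransglucosylase 3.48 (Et_1A_004770). It was 2.49 (Et_1A_007274) for QUA2 and 2.19 (Et_3A_024029) for callose synthase 7. Laccase-5 gave 4.16 (Et_3A_025396), laccase-4 3.66 (Et_3A_025399) and laccase-3 2.39 (Et_3A_026986). Peroxidase 24-like gave 3.60 (Et_10A_001744) and hydroxycinnamoyltransferase 4 3.36 (Et_2B_022705). In the cuticle, values were 5.84 (Et_7A_053112) for cytochrome P450 86A4, 5.39 (Et_2A_017041) for ECERIFERUM 3 and 2.06 (Et_4B_037922) for ECERIFERUM 26-like. The GDSL lipase gave 6.01 (Et_3B_030422), the 2-O-acyltransferase 3.28 (Et_1B_011034) and the ABC transporter 4.48 (Et_2A_016645).

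Tubulin beta-5 gave 2.58 (Et_3B_031227) and MAP65-1 2.88 (Et_2B_022025). Among regulators, NAC77 gave 3.54 (Et_10A_001237), auxin response factor 6 3.85 (Et_1B_012151) and IAA31 2.59 (Et_10A_001437). The late embryogenesis abundant proteins gave 6.60 (Et_4A_034454) and 5.24 (Et_4B_038582). HOX9 gave 1.41 (Et_1A_005917) and 1.99 (Et_1B_010799), the kinase TDR 4.25 (Et_8B_059519). Respiratory burst oxidase B gave 5.37 (Et_10B_003796) and 2.11 (Et_3A_023793), mechanosensitive channel 6 1.79 (Et_1A_008386) and plasma membrane ATPase 1 1.58 (Et_10A_000424). Values for metal-associated proteins 39 and 9 were 4.68 (Et_4B_039347) and 2.81 (Et_6B_049697). Asparagine synthetase gave 3.82 (Et_4A_035945) and the aquaporin PIP2-6 2.95 (Et_5A_040899). Sucrose synthase 2 gave 4.87 (Et_4A_032822) and 2.72 (Et_4B_037022), the hemoglobin 4.48 (Et_1A_007077) and phosphoenolpyruvate carboxylase 1.72 (Et_1B_014155). Phospholipase D alpha 1 gave 3.60 (Et_4A_032776) and 3.15 (Et_4B_036989), FTSH 6 4.89 (Et_2B_021779) and aminopeptidase M1-C 2.58 (Et_2B_020537).

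Negative differences were found for CAX1a, -1.76 (Et_3B_028509), antiporter 20, -3.39 (Et_9A_063199), and calcium-dependent protein kinase 12, -1.71 (Et_7B_054972). The others were TGAL4, -1.68 (Et_6B_048947), ACAULIS5, -1.32 (Et_1B_012528), RPP13-like protein 2, -1.91 (Et_9B_064023), and the A copy of aminopeptidase M1-C, -0.77 (Et_2A_016446).

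A single library stood apart from the other 3 of its group, by Dixon's criterion, in 10 of 286 groups examined, where chance gives about 1 in 20. Optimum-calcium replicate 4 was the low one for NAD-malic enzyme at 13.49 (Et_1A_007018), CAMTA4 at 7.42 (Et_3B_030137), Dicer homolog 1 at 9.50 (Et_4A_032425) and cinnamoyl-CoA reductase at 8.14 (Et_8A_057718). Optimum-calcium replicate 3 was the high one for the GDSL lipase at 2.13 (Et_3B_030422) and DC2.15 at 3.48 (Et_7B_055014). Optimum-calcium replicate 1 was high for TDR at 0.98 (Et_8B_059519) and RPP13-like protein 2 at 9.62 (Et_9B_064023), and low for the galacturonosyltransferase-like gene at 4.49 (Et_4A_035959). Low-calcium replicate 3 was high for the other Dicer homolog 1 copy at 9.48 (Et_4B_039236).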

How the results depend on the processing

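Against 1217 genes that fell in the fit reported, 477 did with scaling by the total, 515 with voom on the recovered reads and 715 to 1406 with 1 library left out, the lowest count without low-calcium replicate 4 and the highest without low-calcium replicate 3. Function lists with more rises than falls numbered 20 of 39, and 33 with scaling by the total and 31 with voom. Genes whose change differed between shoot and root numbered 431, 267 with voom and 271 to 704 with 1 library left out. Homeolog pairs with both copies called in 1 direction numbered 356, 236 with voom and 201 to 416 with 1 library left out. The cause of these differences between alternatives was not tested. Of 141 named genes that passed, 113 passed under every alternative and 28 lost the call under at least 1. The 2 that did not pass changed sign near 0: cellulose synthase 2 was -0.076 (Et_4A_035586) without low-calcium replicate 1, and 0.016 with scaling by the total and 0.017 with voom (Et_4B_038270).

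The labels do not say what a replicate number marks, and it was not treated as pairing the libraries, since deviations of same-numbered libraries correlated at 0.24, -0.05, 0.01 and 0.25. Low-calcium replicates 1 and 4 correlated best with the optimum-calcium library of their own number and replicates 2 and 3 with another, so whether the numbers pair libraries is uncertain. With the replicate number as a block and the shoot libraries alone, 907 genes rose and 1086 fell, against 869 and 878 without the block. With it 18 photosynthesis genes fell against 6 without it, 6 phosphate transporters against 5, and 6 pectin enzymes rose against 8. No growth-regulating factor rose with it, against 1 without it. With the block 7 of the named genes that passed did not pass, among them calcium-dependent protein kinase 4 (Et_1A_007932, limma adjusted p 0.0588). Each group held 4 libraries and low-calcium libraries were shallower. Library numbers run in order of calcium level, so any effect of that order and of calcium cannot be told apart.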

Other observations

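The deposited table also gives small RNA reads by length for the shoot libraries, from 17 to 35 nt. Reads of 24 nt took 11.9% ± 2.78 under low and 11.1% ± 0.982 under optimum calcium, and reads of 21 nt took 6.46% ± 0.439 and 6.65% ± 0.853 (SD, n = 4). Two-sided exact permutation tests gave p = 0.629 and p = 0.686. Reads of 35 nt took 7.95% ± 0.861 under low and 13.7% ± 3.37 under optimum calcium, without overlap (exact permutation p = 0.0286, the smallest possible, and 0.181 adjusted over 19 lengths). Reads of 31 nt took 5.97% ± 1.32 and 3.90% ± 0.265, with the same p-values.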
